A study of Mus musculus with 9 samples.

Results

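The mTOR complexes and the TSC regulators were followed here through 10 genes of splenic regulatory T cells (Treg cells), taken by symbol from the count table and chosen with earlier results of these data known. They are Mtor, Rptor, Rictor, Mlst8, Tsc1, Tsc2, Rheb, Akt1, Akt2 and Rps6kb1, which are 10 of the 26683 genes in the table. All 10 were among the 12738 genes abundant enough to be tested. The cells were isolated as CD4+Foxp3+ from the spleens of female mice aged 2 to 3 months, with 1 mouse per library. The 5 WT mice were B6N.Foxp3YFP-Cre and the 4 KO mice EsrrgNf/f.Foxp3YFP-Cre, so both groups carried the YFP-Cre driven by Foxp3, which acts in Foxp3-expressing cells, and only the KO mice carried the floxed Esrrg gene, which encodes estrogen-related receptor gamma. The strain names and the bracketed library names differ between the groups as well, and strain or colony cannot be told apart from genotype.

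The kinase mTOR works in a pair of complexes that share the subunit encoded by Mlst8. Complex 1 holds Raptor (Rptor), answers to amino acids and growth factors, and drives protein synthesis through S6 kinase 1 (Rps6kb1). Complex 2 holds Rictor and phosphorylates AKT. Tsc1 and Tsc2 form a complex that switches off the small GTPase Rheb, the direct activator of complex 1, and AKT relieves this brake by phosphorylating Tsc2. In Treg cells, complex 1 is known to support suppressive function and metabolic fitness, and too much mTOR activity is known to weaken lineage stability. These proteins are controlled chiefly by phosphorylation and by their place in the cell, which RNA counts do not measure.

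Total counts per library ran from 15269014 to 17425634, so depth was similar throughout. The markers Foxp3 (523 to 598 CPM, the count scaled to library size), Cd4 (910 to 993 CPM) and Cd3e (489 to 542 CPM) were high in all 9 libraries. Esrrg had 0 counts in each of them, where 3 counts would equal at most 0.196 CPM, so the targeted gene cannot check the labels. KO 1 and KO 4 stood apart. The 8 markers of plasma and B cells summed to 260 CPM in KO 1 and 623 CPM in KO 4. They summed to 118 to 166 CPM in WT, 148 CPM in KO 2 and 164 CPM in KO 3. Of the 6 that were tested, 1 (Xbp1) passed, at a log2 fold change of 0.25 (edgeR adjusted p = 0.0324). Of all genes tested 3.28% passed, and 1 call among 6 is too few to set apart from that share. The 8 neutrophil markers summed to 42.8 and 138 CPM in KO 1 and KO 4 and to 1.84 to 7.15 CPM in the other 7 libraries. The 8 markers of macrophages, monocytes and dendritic cells reached 114 CPM in KO 4, 69.8 CPM in KO 1 and 68.9 CPM in WT 1, and 19.1 to 40.6 CPM elsewhere. Of the neutrophil markers 4 were tested and 0 passed, and of the markers of macrophages, monocytes and dendritic cells 7 were tested and 0 passed. No gene of these 3 lists was at 0 in all libraries. The 6 markers of CD8 T cells and NK cells were even, at 20.4 to 23.7 CPM in WT and 21.4 to 25.2 CPM in KO. The 6 erythroid markers summed to 23.2 CPM in KO 1, 15.6 CPM in WT 5 and 13.0 CPM in KO 4. Elsewhere they summed to 1.77 to 7.6 CPM. In each of these lists 4 markers were tested and 0 passed. KO 4 also held 27 counts of Xist, the RNA of the inactive X chromosome, against 27355 to 35693 in the other 8 libraries, which goes against its label as a female.

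Tsc1 and Rictor were the members with the lowest unadjusted p between the groups and the pair whose levels varied most alike, so the 250 bases before their RefSeq start sites (GRCm38.p6) are shown first. The Tsc1 window lies at chr2:28640983-28641232, plus strand, and the Rictor window at chr15:6708131-6708380, plus strand. Both are printed 5′ to 3′, and capitals would mark a motif match.
Tsc1: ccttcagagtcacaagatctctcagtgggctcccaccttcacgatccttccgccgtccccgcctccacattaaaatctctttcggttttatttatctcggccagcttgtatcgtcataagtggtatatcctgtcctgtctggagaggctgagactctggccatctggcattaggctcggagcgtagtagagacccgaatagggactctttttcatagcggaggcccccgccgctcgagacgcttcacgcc
Rictor: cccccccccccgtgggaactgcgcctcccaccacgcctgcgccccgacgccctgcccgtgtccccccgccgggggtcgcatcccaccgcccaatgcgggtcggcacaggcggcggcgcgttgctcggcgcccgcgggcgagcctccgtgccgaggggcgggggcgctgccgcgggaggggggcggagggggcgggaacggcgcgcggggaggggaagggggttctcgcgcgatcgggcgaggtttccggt
Neither window held the estrogen-related receptor element TNAAGGTCA, its core AAGGTCA (which the longer motif contains), the FOXO motif GTAAACA or the E-box CACGTG, on either strand. All 10 members had a window in the RefSeq table, 14 in all since Akt1 and Akt2 have several starts. TNAAGGTCA and AAGGTCA were in 0 of the 14, against 1.14% and 4.08% of all 32851 windows of this length. At shares this low, 0 of 14 is a likely count for any set of genes. Sites outside these 250 bases were not searched. GTAAACA was in 1 window of Akt1 (3.17% of all windows) and CACGTG in the window of Rheb (6.02%), 161 and 96 bases before the start. The 2 printed windows differed in composition, with 54.4% G and C and 16 CpG in Tsc1, 81.2% and 40 in Rictor, and medians of 52.4% and 6 over all windows.

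Of the 10 members, 1 fell and 0 rose in KO by edgeR's quasi-likelihood test at an adjusted p of 0.05. Of all tested genes, 1.88% fell and 1.40% rose, 3.28% in either direction. Without adjustment, 2 members (Tsc1 and Rictor) and 21.6% of all genes had p under 0.05. The groups did not overlap in CPM for 1 member and for 9.07% of all genes. The median log2 fold change (KO over WT) was -0.014 for the members and 0.0052 for all genes tested. The unadjusted and the non-overlapping counts are near these background shares, and 1 adjusted call among 10 genes is too few to set apart from them. CPM of genes in the comparison below are scaled with the trimmed mean of M-values (TMM). In bulk RNA, fewer cells of a type and less RNA per cell cannot be told apart.

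**Figure D1:**
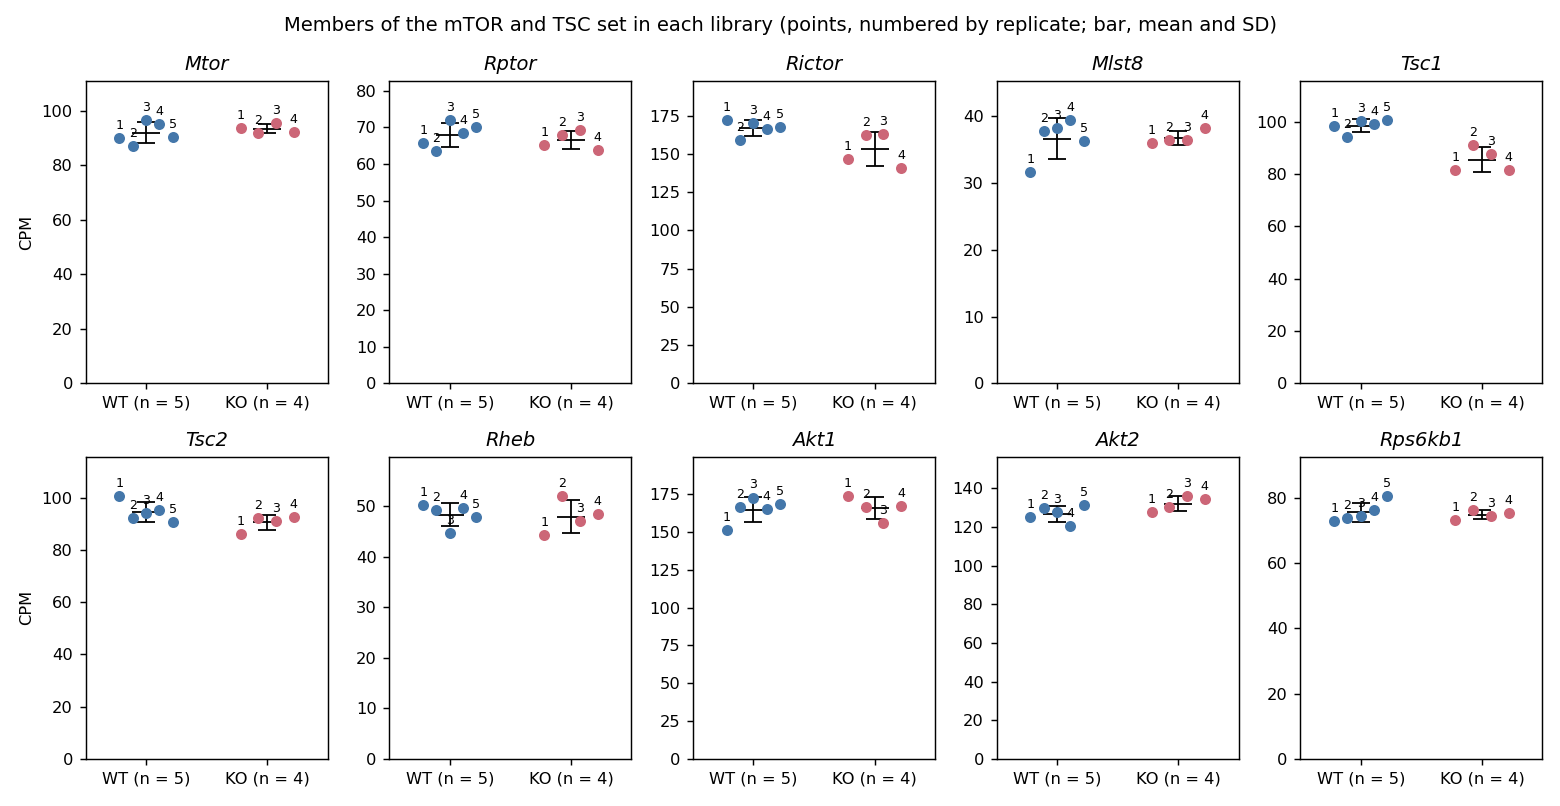
CPM (y axis, from 0) of each of the 10 members in the 5 WT and 4 KO libraries, each point 1 mouse numbered by replicate, with bars for mean and SD. The groups overlap for 9 members, while all 4 KO values of Tsc1 (81.7 to 91.3 CPM) lie below the lowest WT value (94.4 CPM).

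The member that fell was part of the TSC brake on complex 1. Tsc1, which encodes hamartin, the scaffold that stabilises Tsc2 (mm10, chromosome 2, 28641228 to 28691167, plus strand, GENCODE M21), was at 98.6, 94.4, 100.5, 99.2 and 100.6 CPM in WT 1 to WT 5. It was at 81.7, 91.3, 87.6 and 81.7 CPM in KO 1 to KO 4. Every KO library thus lay below every WT library, with KO 1 and KO 4 lowest and WT 2 the lowest of its group. Tsc1 fell from 98.7 ± 2.54 CPM (SD, n = 5) to 85.6 ± 4.73 CPM (n = 4), or -0.21 ± 0.043 (SE) as a log2 fold change, with an edgeR adjusted p of 0.0258. That is a change of -13.3%, with a 95% interval of -18.7% to -7.49%. It rested on 1332 to 1664 counts per library, where counting alone gives a spread of 2.58%. No other annotated gene overlaps Tsc1 or Rictor. The call was lost without any 1 of WT 3, WT 4, WT 5, KO 1, KO 3 or KO 4 (adjusted p 0.0544 to 0.0861) and kept without WT 1, WT 2 or KO 2 (0.0162 to 0.0375). Without KO 1 and KO 4 together the log2 fold change was -0.14 (edgeR adjusted p = 0.197). The part in it of the plasma cell and neutrophil markers, or of the low Xist of KO 4, was not tested.

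Tsc2, which encodes tuberin, the GTPase-activating partner of Tsc1 (chromosome 17, 24595816 to 24632630, minus strand), was at 100.6, 92.4, 94.1, 95.2 and 90.5 CPM in WT and at 86.2, 92.2, 91.0 and 92.8 CPM in KO. WT 1 was highest and KO 1 lowest, and the groups overlapped. The log2 fold change was -0.063 ± 0.041 (SE, edgeR adjusted p = 0.398), and the 95% interval of the change ran from -10.02% to 1.85%. The log2 fold change was -0.040 without WT 1 and -0.041 without KO 1. Its exons overlap those of Pkd1 on the opposite strand, as do those of Rptor with Rptoros, Mlst8 with Bricd5 and Rps6kb1 with Rnft1. Whether reads were counted by strand is not known here, so reads of such pairs may be shared. The log2 ratio of Tsc1 to Tsc2 counts within a library, which needs no scaling between libraries, was 0.062 ± 0.068 (SD, n = 5) in WT and -0.083 ± 0.072 (n = 4) in KO. WT ran from -0.030 to 0.15 and KO from -0.18 to -0.014, so WT 1 (-0.030) lay inside the KO range. The difference between Tsc1 and Tsc2 in their response to genotype was not tested.

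Rheb, the GTPase that the TSC complex switches off (chromosome 5, 24802823 to 24842624, minus strand), showed no shift. It was at 50.1, 49.3, 44.6, 49.7 and 47.8 CPM in WT and at 44.2, 51.9, 46.9 and 48.4 CPM in KO. Both the highest and the lowest library were KO. The log2 fold change was -0.012 ± 0.056 (SE, edgeR adjusted p = 0.924), with a 95% interval of -8.84% to 7.82%, and its sign turned without WT 1 (0.0014) or KO 1 (0.0235).

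Rictor, the defining subunit of complex 2 (chromosome 15, 6708379 to 6800401, plus strand), was at 171.9, 159.1, 170.0, 166.0 and 167.8 CPM in WT. In KO it was at 146.9, 162.1, 162.9 and 140.7 CPM. KO 1 and KO 4 lay below all WT libraries, while KO 2 and KO 3 lay within the WT range. The means were 167 ± 4.90 (SD, n = 5) and 153 ± 11.1 CPM (n = 4), a log2 fold change of -0.12 ± 0.049 (SE) that did not pass (edgeR adjusted p = 0.163). The 95% interval of the change was -14.7% to -1.36%. Without KO 4 the log2 fold change was -0.089 (adjusted p = 0.389). Without KO 1 and KO 4 the log2 fold change was -0.042 (edgeR adjusted p = 0.732). The part of the markers that are high in these libraries, or of the low Xist of KO 4, was not tested.

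Rptor, the subunit that brings substrates to complex 1 (chromosome 11, 119602905 to 119899576, plus strand), was at 65.6, 63.5, 71.9, 68.5 and 70.0 CPM in WT and 65.3, 67.9, 69.2 and 63.8 CPM in KO. All 4 KO values lay within the WT range. Its log2 fold change was -0.029 ± 0.047 (SE, edgeR adjusted p = 0.754), with a 95% interval of -8.63% to 5.07%. It ran from -0.052 (without WT 2) to -0.010 (without WT 3) with 1 library left out, and turned to 0.011 without KO 1 and KO 4. The log2 ratio of Rptor to Rictor counts, a measure of the balance between the transcripts that define the complexes, was -1.30 ± 0.059 (SD, n = 5) in WT and -1.20 ± 0.054 (n = 4) in KO. The ranges, -1.39 to -1.24 and -1.26 to -1.14, overlapped.

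Mtor, the catalytic kinase of both complexes (chromosome 4, 148448611 to 148557683, plus strand), was at 90.1, 87.2, 96.4, 95.2 and 90.4 CPM in WT. It was at 93.6, 91.8, 95.5 and 92.4 CPM in KO, again within the WT range. The log2 fold change was 0.023 ± 0.040 (SE, edgeR adjusted p = 0.773), with a 95% interval of -4.24% to 7.84%, and it ran from 0.0055 (without WT 2) to 0.039 (without WT 3) with 1 library left out. Mlst8, the subunit shared by both complexes (chromosome 17, 24473551 to 24479078, minus strand), was the least counted member with 524 to 634 counts. It was at 31.7, 37.8, 38.3, 39.4 and 36.3 CPM in WT and at 36.0, 36.5, 36.4 and 38.3 CPM in KO. WT 1 alone was low, and the 4 KO libraries lay within the WT range. Its log2 fold change was 0.0041 ± 0.062 (SE, edgeR adjusted p = 0.978), with a 95% interval of -8.70% to 10.2%. Its sign turned under several settings, to -0.044 without WT 1. The log2 ratio of Mlst8 to Mtor was -1.33 ± 0.11 (SD, n = 5) in WT and -1.34 ± 0.055 (n = 4) in KO.

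Akt1 and Akt2 encode the kinases that complex 2 phosphorylates and that act on Tsc2. Akt1 (chromosome 12, 112653821 to 112674884, minus strand) was at 151.3, 166.4, 172.7, 165.0 and 168.1 CPM in WT and at 173.6, 166.2, 156.0 and 167.3 CPM in KO. KO 1 was highest and WT 1 lowest. The log2 fold change was 0.0093 ± 0.046 (SE, edgeR adjusted p = 0.929), with a 95% interval of -6.01% to 7.77%, and its sign turned without WT 1 (-0.020) or KO 1 (-0.015). Akt2 (chromosome 7, 27591552 to 27640826, plus strand) was at 125.1, 129.7, 127.6, 120.4 and 131.3 CPM in WT. It was at 127.6, 130.4, 136.0 and 134.4 CPM in KO, where KO 3 and KO 4 lay above all WT libraries and KO 1 and KO 2 among them. Its log2 fold change of 0.059 ± 0.038 (SE) did not pass (edgeR adjusted p = 0.397), with a 95% interval of -1.68% to 10.3%, and it was 0.037 without WT 4. The log2 ratio of Akt1 to Akt2 was 0.38 ± 0.072 (SD, n = 5) in WT and 0.33 ± 0.10 (n = 4) in KO, and the groups overlapped.

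Rps6kb1, which encodes S6 kinase 1, the complex 1 substrate that phosphorylates ribosomal protein S6 (chromosome 11, 86498871 to 86544805, minus strand), was at 73.0, 73.9, 74.3, 76.1 and 80.5 CPM in WT and at 73.1, 76.2, 74.3 and 75.4 CPM in KO. The KO libraries lay within the WT range, and WT 5 was the highest. Its log2 fold change was -0.015 ± 0.040 (SE, edgeR adjusted p = 0.861), with a 95% interval of -6.78% to 5.07%. It turned to 0.0058 without WT 5.

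**Figure D2:**
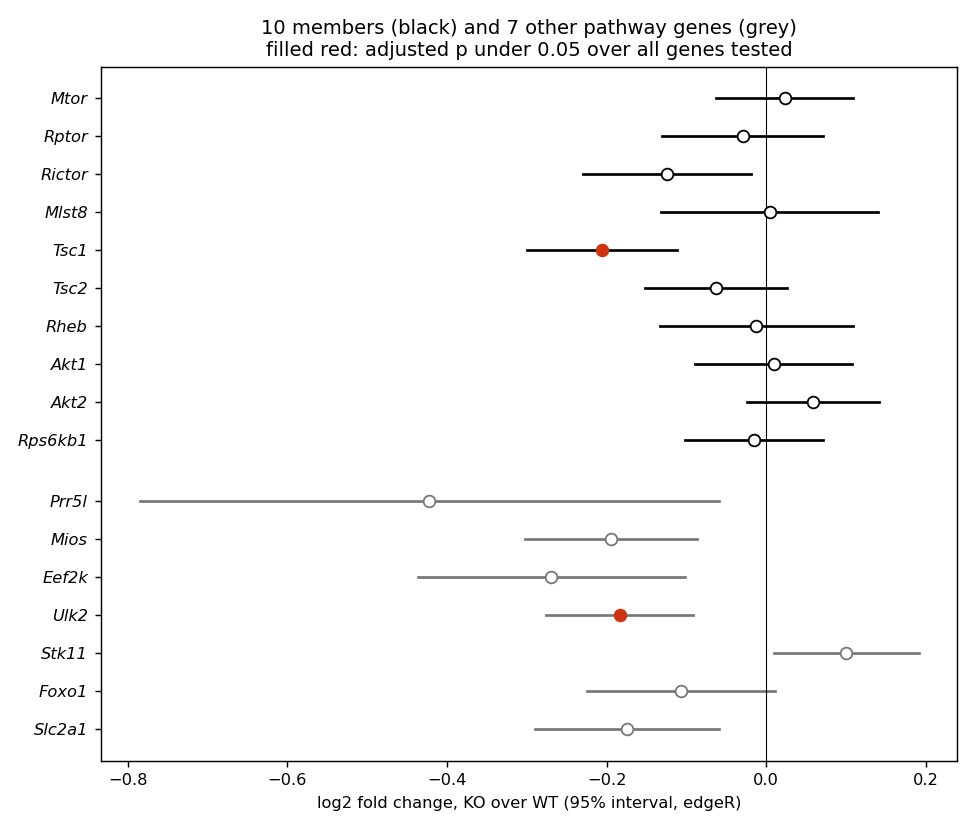
Log2 fold change of KO over WT (x axis) with its 95% interval from edgeR, for the 10 members (black) and 7 other genes of the pathway (grey). Tsc1 and Ulk2 are filled for an adjusted p under 0.05, and the intervals of 8 members include 0.

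Members differed little between mice of a group. Within WT the coefficient of variation ran from 2.57% (Tsc1) to 8.24% (Mlst8), and within KO from 1.77% (Mtor and Rps6kb1) to 7.24% (Rictor). Counting alone gives 1.93% (Akt1) to 4.11% (Mlst8) at these depths. Rictor and Tsc1 varied more in KO (7.24% and 5.53%) than in WT (2.93% and 2.57%), with KO 1 and KO 4 as the low libraries in both genes. Rheb also varied more in KO (6.76%) than in WT (4.67%), and the remaining members varied less in KO than in WT.

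Over the 9 libraries the 45 pairs of members had Pearson correlations of log2 CPM from -0.64 (Tsc2 and Akt1) to 0.904 (Rictor and Tsc1), with a median of 0.031. The pairing of Rictor with Tsc1 was picked as the highest of the 45 and is given as a description. Its Spearman rho was 0.8. Without KO 1 and KO 4, the libraries farthest from the median of Rictor, r was 0.69 and rho 0.607 over 7 libraries, which still mix both groups. Within WT, the lowest library in both genes was WT 2. The genes whose log2 CPM followed Mtor most closely over the 9 libraries were Zfp383 (r = 0.949, 32 to 52 counts), Tmc3 (r = 0.945, 53 to 74 counts) and Coil (r = 0.935, 75 to 102 counts), the last of which encodes coilin of the Cajal body. They were picked as the highest correlations among all tested genes, their counts were low, and Mtor itself varied by 4.18% in WT and 1.77% in KO.

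**Figure D3:**
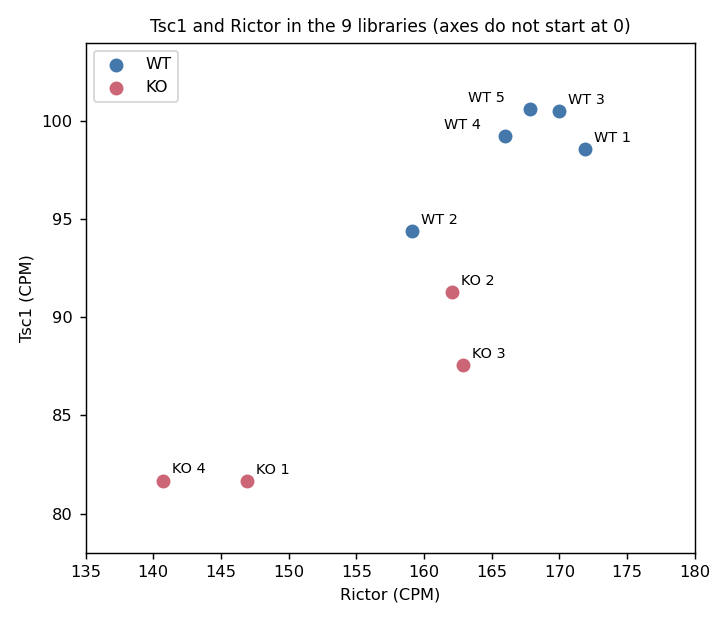
CPM of Rictor (x axis) and Tsc1 (y axis) in each of the 9 libraries, WT in blue and KO in red, on axes that do not start at 0. KO 1 and KO 4 are low in both genes, and KO 2 and KO 3 are within the WT range of Rictor but below the WT range of Tsc1.

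Levels of different genes were compared per length, as TPM (counts per base of exon, scaled to the same sum in each library) computed from the counts and the merged exons of each gene. Akt1 was highest at 150 ± 8.19 TPM (SD, n = 9) and Akt2 next at 67.5 ± 2.62 TPM, and neither range touched that of its neighbour. Tsc2 (35.9 ± 1.45), Rictor (35.4 ± 2.60), Mtor (34.1 ± 1.38), Rps6kb1 (32.4 ± 1.40), Mlst8 (30.9 ± 2.09) and Tsc1 (29.2 ± 2.72 TPM) followed, each overlapping the next in range. Rheb (23.2 ± 1.13 TPM) and Rptor (18.6 ± 1.07 TPM) were lowest, and each lay apart from its neighbours. The highest and lowest member differed by 8.07-fold. Only the first and second places, Akt1 and Akt2, held when the longest transcript replaced merged exons as the length. The other 8 members then changed place, with Rictor at 48.6 ± 3.49, Mtor at 30.4 ± 1.19 and Mlst8 at 26.8 ± 1.79 TPM, the last then being lowest. The order among these 8 therefore depends on which isoform length applies, and it gives no stoichiometry of the complexes.

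**Figure D4:**
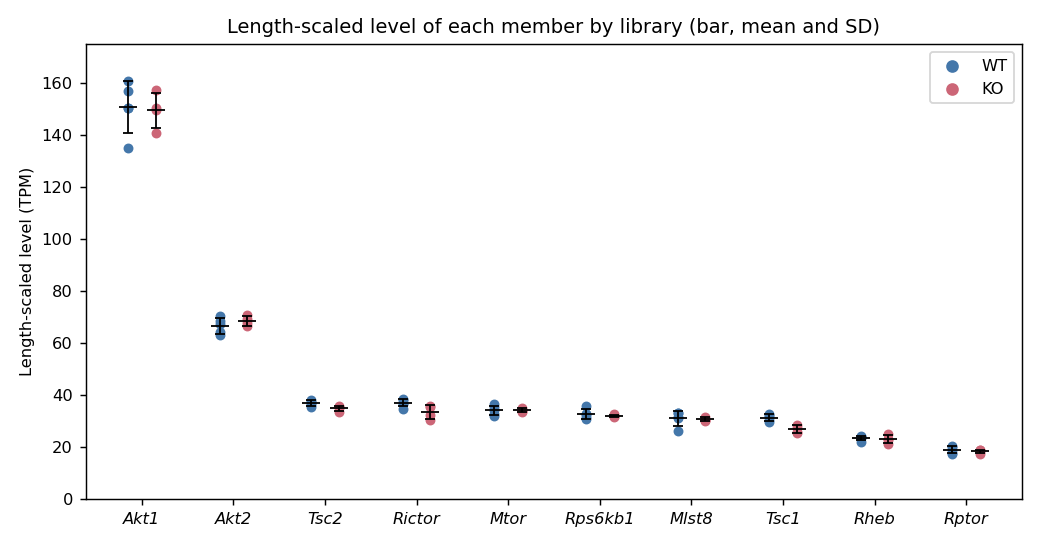
Length-scaled level (TPM, y axis from 0) of each member, ordered from highest to lowest, with 1 point per library (WT blue, KO red) and bars for mean and SD of each group. Akt1 and Akt2 stand above the other 8 members, which lie between 17.4 and 38.3 TPM.

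The rest of the pathway was read from 8 lists by role, 89 genes of which 85 were tested. Among these 1 fell and 0 rose, 10 did not overlap between the groups and 19 had an unadjusted p under 0.05. As shares these sit beside the 3.28%, 9.07% and 21.6% of all genes given above. The median log2 fold change was -0.037 over the 85, with 35 positive and 50 negative, beside 6561 positive and 6177 negative of all genes. Medians of the lists ran from -0.097 (7 tested neighbours of TSC, Rheb and AKT) to 0.022 (8 genes of AMPK and LKB1).

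Ulk2, an autophagy kinase of the family that complex 1 restrains (chromosome 11, 61775649 to 61855073), was the gene that fell. It was at 73.7, 70.4, 67.7, 68.5 and 69.8 CPM in WT and at 58.8, 62.2, 64.6 and 61.0 CPM in KO, with no overlap. Its log2 fold change was -0.18 ± 0.042 (SE, edgeR adjusted p = 0.0386). The call was kept in 2 of the 9 fits that left out 1 library, those without WT 2 and KO 2, and the adjusted p without each of the others ran from 0.0521 (KO 3) to 0.104 (KO 4). Without KO 1 and KO 4 it was -0.145 (adjusted p = 0.234). The other 7 tested genes of the autophagy and lysosome list did not pass.

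In the other lists 0 genes passed in the main edgeR fit. Of the 19 genes with an unadjusted p under 0.05, 8 were among the 29 of amino acid sensing, 4 among the 8 transcription factors and transporters and 3 in the autophagy and lysosome list. The complex partners, the TSC neighbours, the translation targets and the AMPK list held 1 each, and the AKT targets 0. The share over all genes was 21.6%, and lists this small cannot be set apart from it. Both higher and lower genes were among the 19. By DESeq2, 6 of the 85 were lower and 1 higher, or 8.24% in either direction, beside 6.94% of the 13078 genes with an adjusted p from that tool. Mios, a GATOR2 subunit that relays amino acid signals to complex 1, was at 41.2 ± 1.98 and 36.0 ± 1.07 CPM (-0.20, adjusted p = 0.0522), with the groups apart. Eef2k, the elongation factor 2 kinase that S6 kinase inhibits, had -0.27 (adjusted p = 0.0753), and Slc2a1, the glucose transporter GLUT1, -0.17 (0.0918). Prr5l, a partner of complex 2, had -0.42 (0.172) at 2.51 to 4.73 CPM. Foxo1, a transcription factor that AKT excludes from the nucleus, had -0.11 (0.273), and Stk11, the kinase LKB1 that activates AMPK, 0.0999 (0.191). Foxo1 moved to -0.068 without KO 1 and to -0.010 without KO 1 and KO 4, and Stk11 to 0.064 without KO 2.

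**Figure D5:**
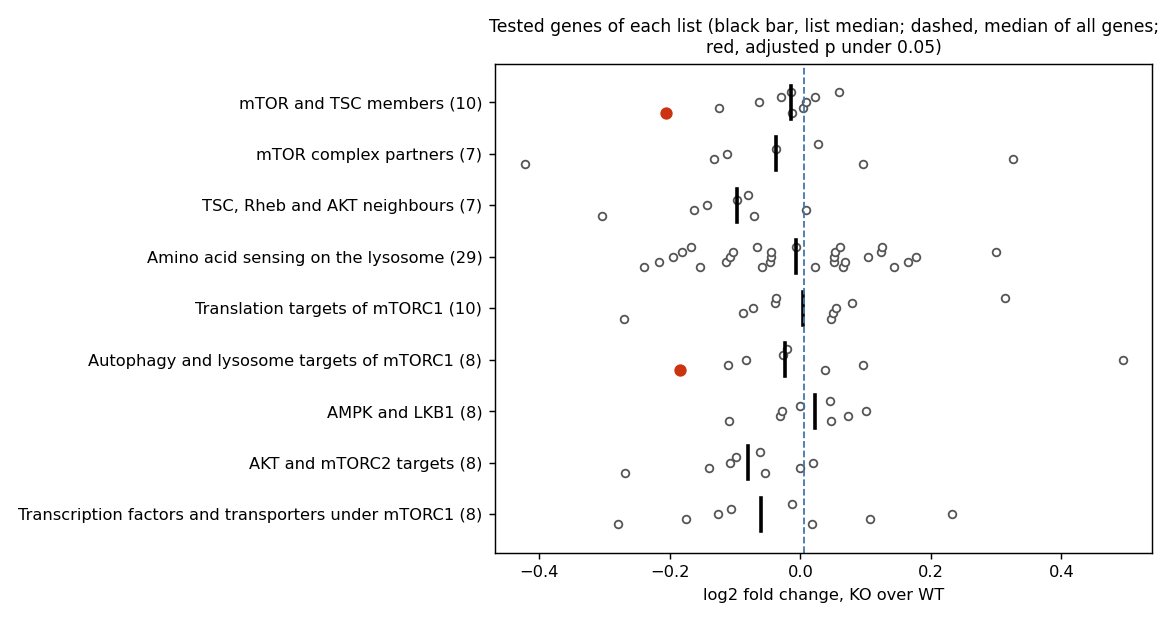
Log2 fold change of KO over WT (x axis) for each tested gene of the member set and the 8 pathway lists (number of genes in brackets), with a black bar at each list's median and a dashed line at the median of all genes (0.0052). Tsc1 and Ulk2 are the filled points.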

How the data were processed

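Libraries came from 1 mouse each and kept strand (TruSeq Stranded RNA), per the labels' protocols. The deposited table was taken to hold raw counts per gene symbol. STAR 2.7, DESeq2 and mm10 appear, without roles, in the submitters' processing notes. Which program and annotation made the counts, and whether by strand, is not stated, so overlapping genes or near-identical copies may share reads. Total counts were 15269014 to 17425634 per library. Columns were matched to samples by the bracketed names in the titles.

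Counts were fitted over all genes with edgeR 4.0.16 in R 4.3.3 (robust quasi-likelihood, TMM scaling, default expression filter), with Benjamini-Hochberg adjustment over the 12738 genes tested. The fit was tested on simulated data with known changes. It called 0% of 49 genes changed 1.1-fold and 30% of 50 genes changed 1.2-fold, and 6.45% of its calls were false. Changes of this size in members that did not pass can therefore be missed. Standard errors came from the log2 fold change and F statistic, log2 CPM used a prior count of 2, and marker sums used unscaled CPM. TPM used GENCODE M21 lengths for 24788 genes matched by symbol. Alternatives used DESeq2 1.42.0 and limma 3.58.1.

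Members and lists were chosen with earlier results of these data known. Named are all 10 members, the 3 genes most correlated with Mtor and, from each list, up to 3 called genes, or else the 1 with the smallest p; 1 gene named by this rule is not reported here. Castor1 and Castor2 were matched through RefSeq synonyms. Floors and counting spreads cover counting error only.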

Additional observations from a re-analysis of the deposited data

How the results depend on the processing

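Alternatives were other scalings, DESeq2, limma-voom (also with sample weights), a mean CPM filter or none, replicate blocks and libraries left out. The choice to leave out KO 1 and KO 4, alone or with WT 1, was made with earlier results known. No member rose under any of the 21 alternatives. Tsc1 kept its lower direction in all 21 (log2 fold change -0.24 to -0.14) and passed in 12. Ulk2 was also lower in all 21 (-0.21 to -0.13) and passed in 9. Mios, which did not pass in the main fit, passed in 3, with the lowest adjusted p by DESeq2 (0.0321). Eef2k passed in 1, limma-voom with sample weights (adjusted p = 0.0478). Slc2a1, Foxo1 and Stk11 passed in 0 of 21, and Prr5l in 0 of 20.

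With 1 library left out, the members that fell numbered 0 to 1, the other pathway genes that fell 0 to 2, and all genes called 97 to 697, against 418 with all libraries. Without KO 1 and KO 4 these counts were 0, 0 and 118, and without WT 1 as well 0, 2 and 250. By DESeq2, 6 pathway genes fell, 1 rose and 908 genes were called in all. With sample weights 6 pathway genes fell and 781 genes were called, with no expression filter 0 pathway genes fell, and with a mean CPM minimum of 5 there were 2 that fell (Prr5l was then not tested).

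The title number as a replicate block gave 0 members, 0 pathway genes and 26 genes in all, while the bracketed number gave 1 member, 1 pathway gene lower, 1 higher and 443 genes. Ulk2 did not pass with the title number (edgeR adjusted p = 0.227) or the bracketed number (0.0905). Deviations of same-numbered libraries correlated at -0.0669 to 0.1 by title and -0.26 to 0.099 by bracket. Best matches with the own number were 1 of 4 WT and 1 of 4 KO libraries by title, and 0 and 1 by bracket, so the numbers are not taken as pairs.

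Signs turned for members near 0 and for Foxo1, a pathway gene at -0.11 in the main fit. With sample weights Mlst8 was -0.023 and Akt1 -0.029. Without KO 1 and KO 4, Rptor was 0.011, Mlst8 -0.011, Rheb 0.032 and Akt1 -0.035, and without WT 1 as well Mlst8 was -0.062, Rheb 0.045, Akt1 -0.065 and Foxo1 0.0069. Rps6kb1 was 0.0087 with the title number as a block. With 1 library left out, ranges were -0.044 to 0.027 for Mlst8, -0.054 to 0.0235 for Rheb, -0.020 to 0.037 for Akt1, -0.027 to 0.0058 for Rps6kb1 and -0.062 to 0.014 for the log2 ratio of Mlst8 to Mtor. The cause was not tested.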
